A study of Danio rerio with 4 samples.

Results

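The genes described here are the BMP ligand genes bmp2b, bmp4 and bmp7a, the homeobox genes vox, vent, ved, eve1 and cdx4, and the BMP feedback genes szl and bambia, 10 genes chosen by name from a table of 31870 gene identifiers. They matched 12 identifiers. Of the genes, 7 matched by their own symbol and bmp4 by the human-form symbol BMP4, which stands once in the table. For bmp2b and bambia the symbol tables give only the human forms BMP2 and BAMBI, each carried by 2 identifiers, since zebrafish also has bmp2a and bambib. Which identifier of a pair is which gene could not be settled, so both of each pair are given by identifier.

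BMP ligands are secreted signals that bind paired type I and type II receptors, which phosphorylate Smad proteins that then act on genes in the nucleus. In the zebrafish blastula and gastrula, BMP activity is high on the ventral side and low on the dorsal side, where the organizer releases antagonists such as Chordin. Vox, Vent and Ved are homeobox repressors that keep organizer genes off ventrally, while sizzled and Bambi, both switched on by BMP signalling, limit it.

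The study measured total RNA, depleted of ribosomal RNA, from whole zebrafish embryos, with 1 library for each of 4 conditions. These were embryos labelled Mybx1, in which the maternal supply of ybx1 is mutant, and wild-type embryos (WT), each at 6 hours post fertilisation (hpf), the onset of gastrulation, and at 0 hpf, when the RNA is that of the egg. The labels name no allele or strain and do not say how many embryos or clutches entered a library. In bulk RNA of this kind, fewer cells of a type and less RNA per cell cannot be told apart.

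Levels are FPKM, read fragments scaled to the length of the gene and to the size of the library. The whole reads behind them could be recovered from the steps between low values, and totals were 6042830 for Mybx1 and 6240685 for WT at 6 hpf, and 7303656 for Mybx1 and 7570070 for WT at 0 hpf. The mutated gene, carried in the table as YBX1, stood at 54.2 FPKM in Mybx1 and 2287 FPKM in WT at 6 hpf, and at 11.9 FPKM in Mybx1 and 338 FPKM in WT at 0 hpf. With 1 library per group no difference has a replicate check and no p-value was computed. Folds are ratios of FPKM with an exact 95% counting interval from the reads, or, for a gene with 0 reads in 1 library, a bound against the level of 3 reads there. Intervals and bounds cover counting error only. A gene was counted where its mean FPKM over both libraries was at least 1, and called where log2(FPKM + 1) differed by at least 2-fold, and "rose" and "fell" are used only of called genes.

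At 6 hpf most members were far lower in Mybx1 than in WT. All 8 members matched by a single identifier were called lower, as were 1 BMP2 and 1 BAMBI identifier. That made 10 lower and 1 higher of 11 counted identifiers, the higher one being the second BAMBI identifier. Of these, eve1 and cdx4 were near 0 in Mybx1 and were counted through WT. The higher identifier was near 0 in WT and was counted through Mybx1. These calls were therefore fixed by the filter. So was the direction, but not a 2-fold difference, of szl and of bmp4, both under 1 FPKM in Mybx1. Over all 15790 counted genes, 20.8% were lower and 38.2% were higher. The median difference of log2(FPKM + 1) was -3.14 over the members, and 0.49 over all genes. With no pseudocount and 3 reads put in place of 0, the members' median was -3.51. Under median-ratio scaling the overall median was -0.24, with 33.4% of genes lower and 24.4% higher, so that 42.2% of the calls were higher, against 64.8% without it. The members again gave 10 lower and 1 higher.

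**Figure D1:**
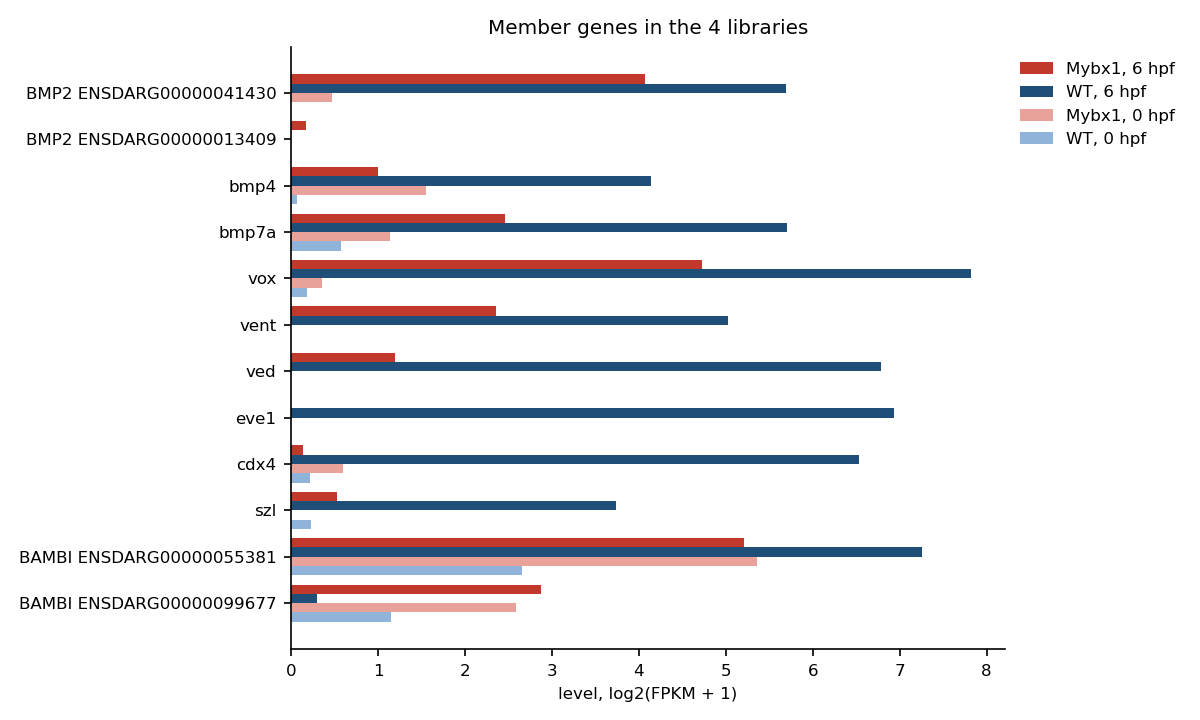
Level of each member identifier as log2(FPKM + 1), 1 bar per library, from the Mybx1 and WT libraries at 6 hpf and at 0 hpf. The WT 6 hpf bar is the longest for every identifier except BMP2 ENSDARG00000013409 and BAMBI ENSDARG00000099677.

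The ligand genes kept unequal shares of their WT level. The expressed BMP2 identifier, ENSDARG00000041430, stood at 15.8 FPKM (170 reads) in Mybx1 and 50.8 FPKM (565 reads) in WT at 6 hpf, against 0.384 FPKM (5 reads) in Mybx1 and 0 reads in WT at 0 hpf. It was therefore higher at 6 than at 0 hpf in both genotypes, and at 6 hpf 3.22-fold lower in Mybx1 than in WT (2.71 to 3.84). The other BMP2 identifier, ENSDARG00000013409, had 1 read in Mybx1 at 6 hpf and 0 reads in the other 3 libraries, so that 1 gene of the pair gave nearly all of its signal. In the GRCz12tu annotation bmp2b overlaps fermt1, an integrin activator gene, which stood at 11.6 FPKM in Mybx1 and 1.90 FPKM in WT at 6 hpf, and 8.20 FPKM in Mybx1 and 0.672 FPKM in WT at 0 hpf; strand was not known to be kept, and the part of fermt1 reads in the BMP2 values was not tested.

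For bmp7a, whose product pairs with Bmp2b in the active ligand, the level was 4.48 FPKM (59 reads) in Mybx1 and 51.2 FPKM (696 reads) in WT at 6 hpf, and 1.19 FPKM (19 reads) in Mybx1 and 0.485 FPKM (8 reads) in WT at 0 hpf. It was 11.4-fold lower in Mybx1 at 6 hpf (8.75 to 15.2). In WT at 6 hpf bmp7a and the expressed BMP2 identifier stood at about the same level per length, whereas in Mybx1 the BMP2 identifier was well above bmp7a.

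The third ligand gene, bmp4, stood at 0.996 FPKM (18 reads) in Mybx1 and 16.6 FPKM (310 reads) in WT at 6 hpf, and at 1.92 FPKM (42 reads) in Mybx1 and 0.0442 FPKM (1 read) in WT at 0 hpf. It was 16.7-fold lower in Mybx1 at 6 hpf (10.4 to 28.5). The Mybx1 library thus held more bmp4 than WT at 0 hpf and less at 6 hpf. In GRCz12tu bmp4 overlaps long non-coding RNA genes for which no identifier was found. Their part in the bmp4 reads was not tested. Of the summed FPKM of the ligand identifiers at 6 hpf, the expressed BMP2 identifier made up 73.8% in Mybx1 and 42.9% in WT, bmp7a 20.9% in Mybx1 and 43.1% in WT, and bmp4 4.65% in Mybx1 and 14.0% in WT.

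Among the homeobox repressors, ved stood apart from vox and vent. The vox level was 25.5 FPKM (153 reads) in Mybx1 and 224 FPKM (1388 reads) in WT at 6 hpf, the highest member level in WT, and 0.276 FPKM (2 reads) in Mybx1 and 0.133 FPKM (1 read) in WT at 0 hpf. It was 8.78-fold lower in Mybx1 at 6 hpf (7.43 to 10.4). The level of vent, which lies next to vox with 0 annotated genes between them in GRCz12tu, was 4.11 FPKM (27 reads) in Mybx1 and 31.5 FPKM (214 reads) in WT at 6 hpf, 7.67-fold lower (5.13 to 11.9), with 0 reads in both genotypes at 0 hpf. Both neighbours thus kept a similar share, and their intervals overlap.

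The level of ved was 1.29 FPKM (8 reads) in Mybx1 and 109 FPKM (695 reads) in WT at 6 hpf, 84.1-fold lower (42.5 to 196), with 0 reads in both genotypes at 0 hpf. Of the summed FPKM of the 3 repressor genes at 6 hpf, vox made up 82.5% in Mybx1 and 61.5% in WT, vent 13.3% in Mybx1 and 8.64% in WT, and ved 4.18% in Mybx1 and 29.9% in WT. In WT ved was the second of the 3 in level, and in Mybx1 the lowest. In GRCz12tu ved overlaps myo18b, a gene not analysed here.

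The posterior and ventral homeobox genes were at or near 0 in Mybx1. For eve1, an even-skipped relative of the ventral and tail-forming margin, the table gave 0 reads in Mybx1 and 121 FPKM in WT at 6 hpf, and 0 reads in both genotypes at 0 hpf. The reads behind the WT value were at least 74, since a gene with reads in 1 library only allows a lower limit, and on that limit eve1 was at least 23.9-fold lower in Mybx1. For cdx4, a caudal gene that sets the posterior body, the level was 0.103 FPKM (1 read) in Mybx1 and 91.2 FPKM (916 reads) in WT at 6 hpf, and 0.51 FPKM (6 reads) in Mybx1 and 0.164 FPKM (2 reads) in WT at 0 hpf. It was 887-fold lower in Mybx1 at 6 hpf (159 to 35071), an interval that a single read sets.

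At 6 hpf szl and 1 BAMBI identifier were lower in Mybx1 and the other BAMBI identifier was higher, so the direction of bambia is not settled. The level of szl, the secreted inhibitor of the proteases that cleave Chordin, was 0.44 FPKM (2 reads) in Mybx1 and 12.3 FPKM (58 reads) in WT at 6 hpf, and 0 reads in Mybx1 and 0.175 FPKM (1 read) in WT at 0 hpf. It was 28.1-fold lower in Mybx1 at 6 hpf (7.43 to 237). In GRCz12tu szl overlaps twf1a and rfx7b, and the identifier carrying TWF1 stood at 20.7 FPKM in Mybx1 and 42.0 FPKM in WT at 6 hpf, and at 19.2 FPKM in Mybx1 and 33.2 FPKM in WT at 0 hpf. For rfx7b 2 identifiers were found, and their levels are not given. The part of twf1a or rfx7b reads in the szl values was not tested.

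Bambi is a receptor-like membrane protein with no kinase domain. The BAMBI identifier ENSDARG00000055381 stood at 35.9 FPKM (340 reads) in Mybx1 and 152 FPKM (1488 reads) in WT at 6 hpf, and at 40.1 FPKM (460 reads) in Mybx1 and 5.30 FPKM (63 reads) in WT at 0 hpf. It was 4.24-fold lower in Mybx1 at 6 hpf (3.76 to 4.78). The identifier ENSDARG00000099677 ran the other way, at 6.30 FPKM (54 reads) in Mybx1 and 0.226 FPKM (2 reads) in WT at 6 hpf, and at 5.02 FPKM (52 reads) in Mybx1 and 1.21 FPKM (13 reads) in WT at 0 hpf. It was 27.9-fold higher in Mybx1 at 6 hpf (7.35 to 236).

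**Figure D2:**
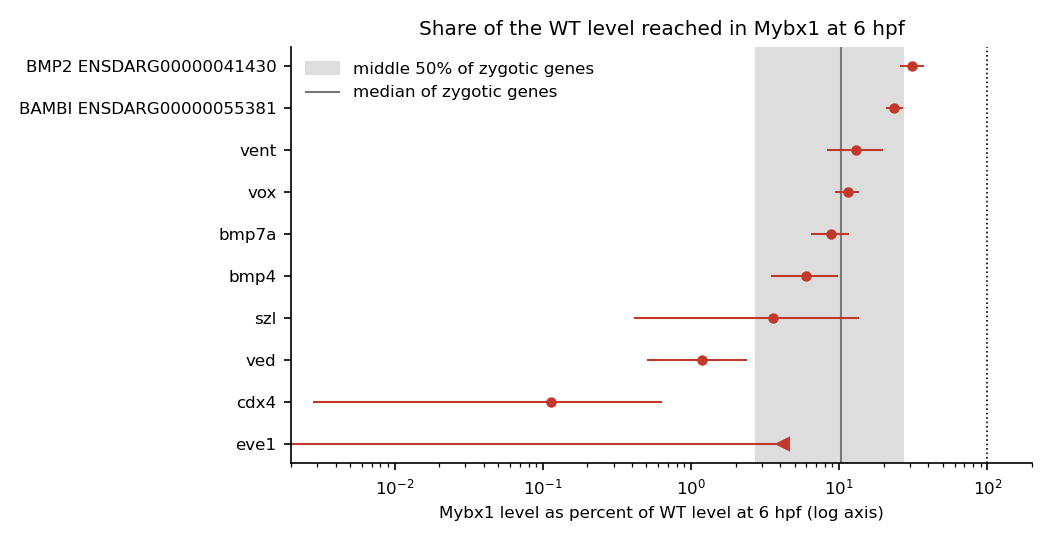
FPKM in Mybx1 as a percent of FPKM in WT at 6 hpf, on a log axis, with 95% counting intervals; the arrow of eve1 marks the upper limit from 3 reads. The grey band and line give the middle 50% and the median of 1191 zygotic genes, the dotted line marks 100%, and BAMBI ENSDARG00000099677, at 2788%, is not drawn; members run from eve1 at 0 reads to BMP2 ENSDARG00000041430 at 31.1%.

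Expressed as a share of the WT level at 6 hpf, the order from the top was the expressed BMP2 identifier at 31.1% (26.0 to 36.9), BAMBI ENSDARG00000055381 at 23.6% (20.9 to 26.6), vent at 13.0% (8.39 to 19.5), vox at 11.4% (9.57 to 13.5), bmp7a at 8.75% (6.59 to 11.4), bmp4 at 6.00% (3.51 to 9.64), szl at 3.56% (0.421 to 13.5), ved at 1.19% (0.511 to 2.36), cdx4 at 0.113% (0.00285 to 0.63), and eve1 with 0 reads (0 to 5.28 on the same interval, and up to 4.19% if 3 reads are put in place of 0). The intervals of neighbours in this order overlap, except that vent lies below BAMBI ENSDARG00000055381. Those of ved and of vent, vox, bmp7a and bmp4 do not overlap, nor do those of bmp7a or bmp4 and the expressed BMP2 identifier. Scaling by library leaves this order as it is, since it multiplies all shares by the same factor. A share is not always a level gained by 6 hpf. In Mybx1, BAMBI ENSDARG00000055381 stood at 40.1 FPKM at 0 hpf and 35.9 FPKM at 6 hpf. The bmp4 level there was 1.92 FPKM at 0 hpf and 0.996 FPKM at 6 hpf.

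These shares were set beside those of all zygotic genes, defined as under 1 FPKM in WT at 0 hpf and at least 5 FPKM in WT at 6 hpf. Of 1191 such genes, 9 are members, with a median share of 6.00%, against 10.3% over all 1191 (quartiles 2.76% and 27.0%). The set was chosen on the WT level that the share is divided by, so these are descriptions. Its definition takes no account of Mybx1 eggs, where bmp4 stood at 1.92 FPKM. Among the members with reads, 8.31% of zygotic genes had a lower share than cdx4, 16.8% than ved, 51.6% than vox and 78.8% than the expressed BMP2 identifier. None of the 9 members reached 50% of WT, as 12.2% of the zygotic genes did.

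In eggs, the 2 BAMBI identifiers were the only members counted, and both were higher in Mybx1, by 7.57-fold for ENSDARG00000055381 (5.81 to 10.01) and 4.15-fold for ENSDARG00000099677 (2.23 to 8.30). Over 13811 counted genes 8.85% were higher and 6.7% lower. Short of the filter on mean FPKM, bmp4 was 43.5-fold higher in Mybx1 (7.40 to 1759.8) and bmp7a 2.46-fold higher (1.03 to 6.50). The expressed BMP2 identifier, with 5 reads against 0, was at least 1.73-fold higher, and cdx4, with 6 reads against 2, had an interval that includes no difference (0.556 to 31.5). At this depth vent, ved and eve1 had 0 reads in the eggs of either genotype, and vox and szl had at most 2.

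Between 0 and 6 hpf all 10 counted member identifiers rose in WT. Of 15031 counted genes 24.2% rose and 41.1% fell, or 34.8% and 27.0% with median-ratio scaling, where 56.2% of the calls were rises, against 37.0% without it. The median stage change of log2(FPKM + 1) was 5.42 over the members and -0.57 over all genes. With no pseudocount and 3 reads put in place of 0, it was 7.28 over the members. Identifiers near 0 at 0 hpf could be counted only by their level at 6 hpf, so a rise was fixed by the filter for these. Of those with reads at both stages, vox was 1684-fold higher at 6 than at 0 hpf (302 to 66549), cdx4 556-fold (153 to 4594), bmp4 376-fold (67.0 to 14899.9), bmp7a 106-fold (53.3 to 245), szl 70.4-fold (12.1 to 2826) and BAMBI ENSDARG00000055381 28.7-fold (22.3 to 37.5). With 0 reads at 0 hpf, ved was at least 281-fold higher, the expressed BMP2 identifier at least 228-fold, vent at least 86.5-fold and eve1 at least 29.9-fold.

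In Mybx1, 4 of the 7 counted identifiers rose between 0 and 6 hpf and none fell. Over 14790 counted genes 7.67% rose and 7.1% fell. The expressed BMP2 identifier was 41.1-fold higher at 6 than at 0 hpf (17.3 to 128), vox 92.5-fold (25.2 to 770), vent at least 10.9-fold and bmp7a 3.75-fold (2.21 to 6.67). Of these, vent and vox were near 0 at 0 hpf and were counted through their 6 hpf level, so their rise was fixed by the filter here too. The expressed BMP2 identifier, at 0.384 FPKM at 0 hpf, was also counted through its 6 hpf level. For it the filter fixed the direction but not a 2-fold rise. The rises of vent and bmp7a were below 2-fold with a pseudocount of 5. Below the filter, ved went to 8 reads at 6 hpf, against 0 reads at 0 hpf, at least 3.22-fold. BAMBI ENSDARG00000055381 stayed within 2-fold, at 35.9 FPKM at 6 hpf and 40.1 FPKM at 0 hpf. So did bmp4, with an interval of 1.09 to 3.56-fold lower at 6 hpf.

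Across the stages, with this threshold and filter, some members were called as rising in both genotypes and others in WT only. The first were the expressed BMP2 identifier, bmp7a, vox and vent, that is 4 of the 10 that rose in WT (40%). Of the 3637 genes with a rise in WT, 21.8% also had one in Mybx1, and nothing is read from the difference between these shares, since the filter fixed most of the members' rises. The 6 others were bmp4, ved, eve1, szl, cdx4 and BAMBI ENSDARG00000055381. Of these, ved, eve1, szl and cdx4 were not counted in Mybx1, so the filter placed them here. Below the filter, ved was at least 3.22-fold higher at 6 hpf in Mybx1. Only bmp4 and BAMBI ENSDARG00000055381 were counted in Mybx1 and stayed within 2-fold. The difference between genotypes was not tested, since each stage has 1 library per genotype.

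**Figure D3:**
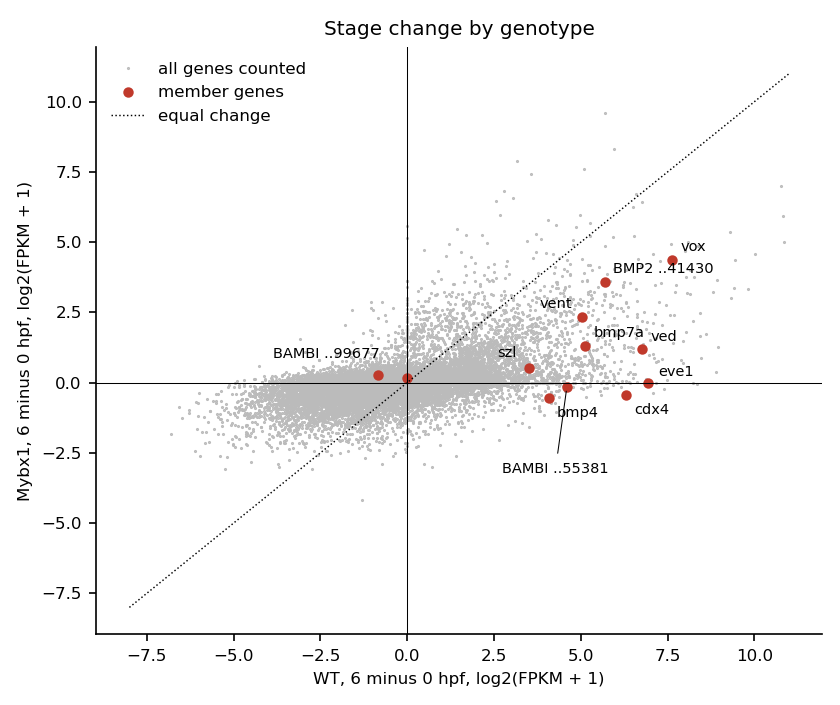
Difference of log2(FPKM + 1) between 6 and 0 hpf in Mybx1 (vertical axis) against that in WT (horizontal axis), for 16534 genes counted in either genotype (grey) and the member identifiers (red; the last 5 digits mark paired identifiers, and the unlabelled point near 0 is BMP2 ENSDARG00000013409). All members that rose in WT lie below the dotted line of equal change.

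The genes with the most similar pattern were found by the Euclidean distance between values of log2(FPKM + 1) over the 4 libraries. For vox the nearest was sult6b1, a sulfotransferase gene (distance 0.44), at 24.8 FPKM in Mybx1 and 255 FPKM in WT at 6 hpf, followed by si:dkey-14o1.14 (0.50) and si:ch1073-80i24.3 (0.56). For cdx4 the nearest were nradd (0.44), at 0.353 FPKM in Mybx1 and 87.1 FPKM in WT at 6 hpf, 1 of 2 identifiers carrying DLL1, a Notch ligand (0.45), and krt17, a keratin gene (0.50). For the expressed BMP2 identifier they were si:ch211-57i17.2 (0.42), 1 of 6 identifiers carrying TNNI2 (0.52) and si:ch211-14a11.5 (0.60).

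The other BMP pathway genes were a list of 63 symbols, which gave 61 identifiers beyond the members. No identifier was found for cdx1a, cdx1b and sp5l, and those of bmp2a and bambib are counted with the members. The 61 identifiers were lower at 6 hpf in part and higher in part. Of 47 counted, 22 were lower and 10 higher in Mybx1, with a median difference of log2(FPKM + 1) of -0.64, beside 20.8% lower, 38.2% higher and a median of 0.49 over all genes. Several of the 22, such as chrd, SMAD7, ID1 and tbx16, are zygotic genes as defined above, which had a median share of 10.3% of WT. The counts are therefore not read as a trait of the list. Under median-ratio scaling 27 of the list were lower and 5 higher. BMPR1A ENSDARG00000019728, acvr1l, ACVR2A, smad9 and WNT8A ENSDARG00000052910 were then called lower, and acvr2ab, ACVR2B ENSDARG00000044422, SMURF1, TWSG1 and runx2b were no longer called higher. Between 0 and 6 hpf, 22 rose and 12 fell in WT, where 24.2% of all genes rose and 41.1% fell, and 6 of the 22 rose and 2 of the 12 fell in Mybx1 (27.3% and 16.7%). Over all genes the same shares were 21.8% and 12.3%, and nothing is read from the differences. The 6 were admp, BMPER, ID1, TFAP2C, foxi1 and tbx16. All but foxi1 were near 0 at 0 hpf in Mybx1 and were counted through their 6 hpf level. The filter thus fixed their rise, or for ID1 its direction. Many of the 22 rises in WT, such as those of chrd and tbx16, were fixed in the same way.

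**Figure D4:**
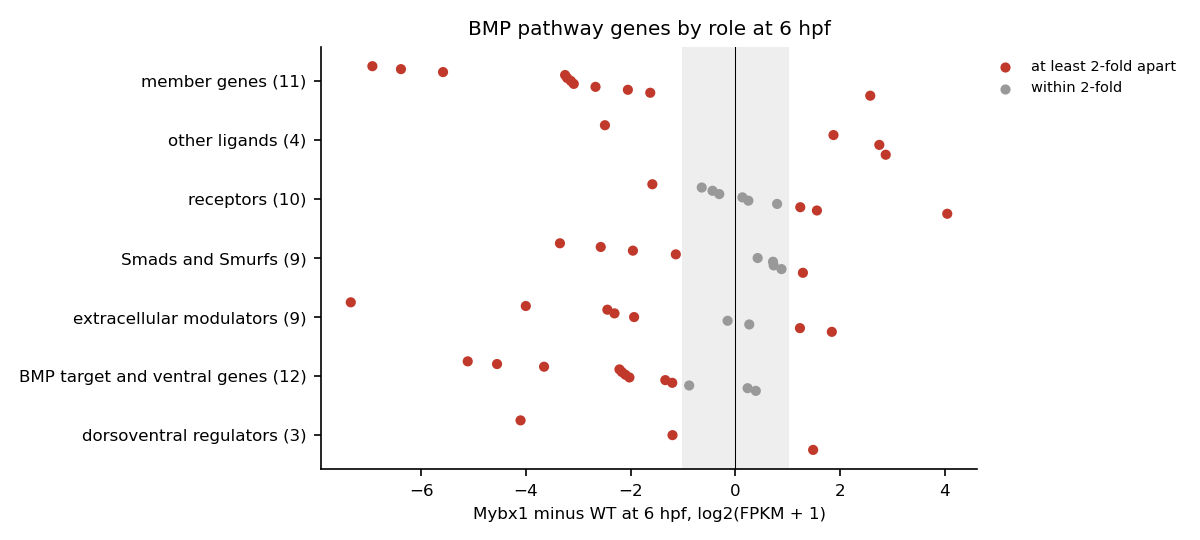
Difference of log2(FPKM + 1) between Mybx1 and WT at 6 hpf, 1 point per counted identifier, by role, with the number counted in brackets. The band marks differences within 2-fold. The points left of it are lower in Mybx1, among them 9 of 12 BMP target and ventral genes, beside 20.8% of all counted genes. Several of the 9 are zygotic genes, which had a median share of 10.3% of WT.

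Of 4 counted ligand identifiers outside the members, 3 were higher in Mybx1 at 6 hpf, beside 38.2% of all genes. These were BMP6, gdf6a and gdf3. The calls of BMP6 and gdf6a, near 0 in WT, were fixed by the filter. The level of gdf3 was 444 FPKM in Mybx1 and 120 FPKM in WT at 6 hpf, and 473 FPKM in Mybx1 and 508 FPKM in WT at 0 hpf. It was placed on this list by choice, and its level is not read as that of a BMP ligand. The ligand gene gdf6a, known for its maternal product radar, stood at 6.93 FPKM in Mybx1 and 0.181 FPKM in WT at 6 hpf, and at 7.44 FPKM in Mybx1 and 7.58 FPKM in WT at 0 hpf, so that it was 38.2-fold higher in Mybx1 at 6 hpf (12.7 to 188) from about equal levels in eggs. BMP6 was 36.7-fold higher at 6 hpf (9.78 to 309), and 2.78-fold higher at 0 hpf (1.93 to 4.08). The lower one, admp, a BMP-like ligand of the organizer, stood at 3.47 FPKM in Mybx1 and 24.1 FPKM in WT at 6 hpf.

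Receptor genes were mostly present in the egg and remained measurable. Of 10 counted at 6 hpf, 3 were higher and 1 lower in Mybx1, a count near or below the shares over all genes, and under median-ratio scaling 1 was higher and 4 were lower. The type I receptor gene bmpr1ba stood at 47.2 FPKM in Mybx1 and 1.92 FPKM in WT at 6 hpf, 24.6-fold higher (16.5 to 38.3), and at 62.3 FPKM in Mybx1 and 57.6 FPKM in WT at 0 hpf. The type II receptor identifier BMPR2 ENSDARG00000011941 was the lower one, at 0.649 FPKM in Mybx1 and 3.95 FPKM in WT. At that Mybx1 level the filter fixed its direction, but not a 2-fold difference. At 0 hpf the largest difference was that of ACVR2A, 2.06-fold lower (1.85 to 2.30). The type I receptor gene acvr1l, named after its values were seen, stayed within 2-fold, at 187 FPKM in Mybx1 and 293 FPKM in WT at 6 hpf, but was called lower under median-ratio scaling, with a log2 difference of -1.40.

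Among Smad and Smurf genes, inhibitory Smads were low in Mybx1. Of 9 counted at 6 hpf, 4 were lower and 1 higher, beside 20.8% lower and 38.2% higher over all genes. The calls of SMAD1 and both SMAD6 identifiers, near 0 in Mybx1, were fixed by the filter. SMAD7, an inhibitory Smad, stood at 1.97 FPKM in Mybx1 and 29.3 FPKM in WT, 14.9-fold lower (9.11 to 25.9). The inhibitory Smad identifier SMAD6 ENSDARG00000053209 was 32.6-fold lower (10.8 to 161). SMAD5, the receptor-activated Smad supplied in the egg, was within 2-fold at both stages, at 97.0 FPKM in Mybx1 and 58.6 FPKM in WT at 6 hpf, and 75.01 FPKM in Mybx1 and 55.4 FPKM in WT at 0 hpf.

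Of 9 extracellular modulators counted at 6 hpf, 5 were lower and 2 higher, beside 20.8% lower and 38.2% higher over all genes. The calls of chrd and of NOG ENSDARG00000058819, near 0 in Mybx1, were fixed by the filter. The Chordin gene chrd, whose product binds BMP, had 2 reads in Mybx1 and 3646 reads in WT at 6 hpf, 1765-fold lower (488 to 14581). The identifier SFRP1 ENSDARG00000035521, of a secreted Frizzled-related protein, stood at 12.1 FPKM in Mybx1 and 209 FPKM in WT at 6 hpf, 17.3-fold lower (13.7 to 22.0), and at 14.1 FPKM in Mybx1 and 7.54 FPKM in WT at 0 hpf.

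BMP target and ventral genes gave 9 lower and none higher of 12 counted at 6 hpf. Over all genes 20.8% were lower and 38.2% higher, or 33.4% and 24.4% under median-ratio scaling. Several of the 9, such as ID1, TFAP2C and tbx16, are zygotic genes as defined above, so all genes are an unlike measure for them. The 1191 zygotic genes had a median share of 10.3% of WT at 6 hpf, and 12.2% of them reached 50%. The count is not read as a trait of BMP target genes. The call of msx3, near 0 in Mybx1, was fixed by the filter, as was the direction of drl, at 0.889 FPKM in Mybx1. ID1, a direct BMP target that blocks basic helix-loop-helix factors, stood at 2.30 FPKM in Mybx1 and 113 FPKM in WT, 49.1-fold lower (29.1 to 90.3). The T-box gene tbx16 of the margin stood at 3.61 FPKM in Mybx1 and 107 FPKM in WT, 29.6-fold lower (24.5 to 36.3). The homeobox gene msx1b was 3.04-fold higher in Mybx1 at 0 hpf (1.62 to 6.03), but 5.49-fold lower in Mybx1 at 6 hpf (3.15 to 10.2). The expressed WNT8A identifier, ENSDARG00000052910, of a Wnt ligand of the ventrolateral margin that acts on vox and vent, stayed within 2-fold, at 16.6 FPKM in Mybx1 and 31.5 FPKM in WT at 6 hpf, but was called lower under median-ratio scaling, with a log2 difference of -1.61. At 0 hpf this identifier already stood at 42.7 FPKM in Mybx1 and 42.4 FPKM in WT. How much of its RNA at 6 hpf was left from the egg was not tested. The ventral ectoderm gene foxi1, named after its values were seen, stayed within 2-fold, at 32.1 FPKM in Mybx1 and 27.1 FPKM in WT at 6 hpf. Its log2 difference was 0.23, whereas median-ratio scaling moved that of the WNT8A identifier from -0.88 to -1.61. The direction of foxi1 therefore depends on the scaling and is not settled.

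Of the dorsoventral regulators, 2 of 3 counted at 6 hpf were lower and 1 higher, beside 20.8% lower and 38.2% higher over all genes. GSC, an organizer homeobox gene that Vox, Vent and Ved repress, stood at 0.817 FPKM in Mybx1 and 30.2 FPKM in WT, 37.0-fold lower (16.7 to 102). At that Mybx1 level the filter fixed the direction of GSC, but not a 2-fold difference. The gene pou5f3, a POU-domain activator of early zygotic genes, stood at 276 FPKM in Mybx1 and 637 FPKM in WT at 6 hpf, 2.30-fold lower (2.22 to 2.39), with a difference of log2(TPM + 1) of -0.98, short of 2-fold. The Runt-domain gene runx2b, part of the maternal input to ventral genes, stood at 6.67 FPKM in Mybx1 and 1.74 FPKM in WT at 6 hpf, and at 6.66 FPKM in Mybx1 and 6.26 FPKM in WT at 0 hpf.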

How the data were processed

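Total RNA of whole embryos was sequenced in 4 libraries, 1 per group, per the labels. The authors deposited FPKM values in 1 table, holding 0 columns of any other sample. GRCz10, HTSeq 0.6.1, TopHat2 2.0.12 and Bowtie2 2.2.3 appear, with no role, in the submitters' processing notes. The FPKM formula, annotation release and strand handling are not given in the sources used here. Symbols came from a table of gene identifiers, which names 81.9% of them; the RefSeq table of GRCz12tu gave names and overlaps only, so no coordinates are printed, and no sequences were available to print. Library totals were taken as the largest at which at least 80% of 400 low values gave a whole gene length (observed 90.8% to 94.0%, within 0.005), and reads as the smallest whole numbers, from lengths of 50 to 30000 bases, that give all 4 values; these are lower limits, so intervals are if anything too wide. Recovery and calls were also run on 2 simulated libraries drawn from the WT 6 hpf levels. The outcome is not given here, so no support is taken from that run. Intervals are Clopper-Pearson on the conditional binomial (scipy 1.17.1, Python 3.11.15). The members and gene lists were chosen with earlier results of these data known. Named genes were all members, per pathway role the 2 largest differences at 6 hpf and the largest at 0 hpf, chrd, WNT8A and pou5f3, the 3 nearest patterns of 3 members, and genes that make up small counts. Alternatives were pseudocounts of 0.1 and 5, no filter or a mean FPKM of 5, TPM and median-ratio scaling, and a 4-fold threshold.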

Additional observations from a re-analysis of the deposited data

Results flagged for a closer look

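The stage change, 6 minus 0 hpf in log2(FPKM + 1), ran in opposite directions in the genotypes for 4 member identifiers, each with 1 library per group, and the difference between genotypes was not tested. For bmp4 it was -0.55 in Mybx1 and 4.08 in WT, a difference of -4.63. For BAMBI ENSDARG00000055381 it was -0.16 in Mybx1 and 4.60 in WT, a difference of -4.76, where the Mybx1 change is within its counting interval. For BAMBI ENSDARG00000099677 it was 0.28 in Mybx1 and -0.85 in WT, a difference of 1.13, where the Mybx1 change is within its counting interval (0.842 to 1.87-fold) and the WT change rests on 2 reads at 6 hpf and 13 at 0 hpf. For cdx4 it was -0.45 in Mybx1 and 6.31 in WT, a difference of -6.76, with 1 read in Mybx1 at 6 hpf and 6 at 0 hpf. The Mybx1 change of cdx4 was not counted, and its interval (0.602 to 228-fold lower) includes no change. Opposite signs were found for 4 of 11 counted member identifiers (36.4%) and for 29.3% of all 16534 genes counted in either genotype, small changes included.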

How the results depend on the processing

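No paired analysis was possible because each group has 1 library. Of the members' 48 single differences, none changed sign under TPM or median-ratio scaling. Those of exactly 0 have no sign to change. A pseudocount cannot alter the sign of a difference, so nothing is read from its being kept under the other pseudocounts. Being called takes 2-fold and a mean FPKM of 1 together, and on this no call changed with a pseudocount of 0.1 or with median-ratio scaling, while 3 were lost with a pseudocount of 5 and 3 gained with TPM. Without the filter, the difference itself crossed 2-fold in 9 of 48 with a pseudocount of 0.1, 5 with a pseudocount of 5, 1 with TPM and 0 with median-ratio scaling. The cause of the following moves was not tested. At 6 hpf, the members' count higher in Mybx1 was 0 with a mean FPKM of 5. At 0 hpf, it was 1 with a pseudocount of 5, a mean FPKM of 5 or a 4-fold threshold, in place of 2. In Mybx1 from 0 to 6 hpf, 2 members rose with a pseudocount of 5 or a mean FPKM of 5, in place of 4, and in WT 1 fell with TPM. For the BMP pathway list at 6 hpf, 14 were lower with a mean FPKM of 5, in place of 22, and 5 were higher with median-ratio scaling and 3 with a 4-fold threshold, in place of 10. At 0 hpf, in place of 4 higher and 1 lower, the list gave 0 and 0 with a pseudocount of 5 or a 4-fold threshold, 2 higher with median-ratio scaling and 3 lower with TPM. In Mybx1 from 0 to 6 hpf, in place of 6 rises and 3 falls, it gave 1 rise with a pseudocount of 5 or a mean FPKM of 5, 5 falls with TPM and 0 falls with a 4-fold threshold. In WT, in place of 12 falls, it gave 5 with a pseudocount of 5, 6 with median-ratio scaling and 3 with a 4-fold threshold. Depth limits the members at 0 hpf, where 1 to 3 reads stand behind several values, and FPKM values hold no trace of the total RNA per embryo.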
